A study of Mus musculus with 2 samples.

Results

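The Krüppel-like factors described here are 10 mouse genes, chosen by name from the family other than Klf1: Klf2, Klf3, Klf4, Klf5, Klf6, Klf7, Klf9, Klf10, Klf13 and Klf16. The choice was made with earlier results of these data known, and it leaves out Klf8, Klf11, Klf12, Klf14, Klf15 and Klf17. All 10 were found by symbol among the 43346 Ensembl genes of both gene tables, and all were kept whatever their level. They were measured in polyadenylated RNA of primary mouse megakaryocytes, the large blood cells that shed platelets. Per the labels, the cells came from embryos at day 14.5 with males and females pooled. The labels name no genotype, strain, treatment or second group. The study thus has 1 group of 2 libraries, called replicate 1 and replicate 2, which cite the same biosample and donor, so the spread between them may be technical.

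Krüppel-like factors are transcription factors whose zinc fingers at the C-terminal end read GC-rich DNA and CACCC boxes. Their N-terminal parts differ and set what they recruit. Klf9, Klf10, Klf13 and Klf16 can bind the SIN3 co-repressor, Klf3 binds the co-repressor CtBP, and Klf2, Klf4, Klf5, Klf6 and Klf7 are best known as activators. In blood the family is known above all from red cells, where Klf1 drives globin genes and Klf3 is among its targets, and from Klf2 and Klf4 in lymphocytes and monocytes.

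Replicate 1 held 42099208 rounded expected counts and replicate 2 held 2275920, so a count of 0 allowed up to 0.0713 CPM (counts over the sum of all counts, on a common scale) in replicate 1 and 1.32 CPM in replicate 2. Intervals and floors given here cover counting error only. All 10 megakaryocyte markers, among them Itga2b, Gp9, Pf4 and Gata1, stood at 1 TPM (transcript abundance per length, scaled to the same total in each library) or more in both libraries, with summed levels of 16396 TPM in replicate 1, against 23450 TPM in replicate 2. Of 10 macrophage markers, 7 reached a mean of 1 TPM, and their summed level was 874 TPM in replicate 1, against 229 TPM in replicate 2. Cd163 was uncounted in both libraries. Mrc1 and Vcam1 were uncounted in replicate 2 and close to absent in replicate 1, at 0.0238 and 0.119 CPM. Of 10 granulocyte markers, 9 reached a mean of 1 TPM, with summed levels of 862 and 150.2 TPM in replicates 1 and 2. Ctsg, Ltf, Camp, S100a8 and S100a9 were uncounted in replicate 2. For Mrc1, Vcam1 and S100a8 (0.926 CPM), the replicate 1 level lay under the replicate 2 floor of 1.32 CPM. Their absence from replicate 2 thus shows no difference. Ctsg, Ltf, Camp and S100a9 lay above that floor in replicate 1. Both myeloid sums were higher in replicate 1. The Klf genes below differed between the libraries in either direction, with summed levels of 255 TPM in replicate 1, against 358 TPM in replicate 2. The part of myeloid cells in the Klf values was not tested. In bulk RNA, fewer cells of a type and less RNA per cell cannot be told apart.

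In Klf4, Klf7 and Klf13 the annotated transcript with the highest TPM differed between the libraries, and Klf3 had a second transcript that was counted in replicate 1 alone. The sequence around the gene start is therefore shown for Klf3, Klf7 and Klf13, and not for Klf4, whose replicate 2 value rests on 7 counts. Each sequence is the RefSeq window on GRCm38.p6 from 250 bases before to 50 bases after the gene's start, 5′ to 3′ on the gene's strand, and capitals mark CACCC or its complement GGGTG.
Klf3, chr5:64803271-64803570, plus strand: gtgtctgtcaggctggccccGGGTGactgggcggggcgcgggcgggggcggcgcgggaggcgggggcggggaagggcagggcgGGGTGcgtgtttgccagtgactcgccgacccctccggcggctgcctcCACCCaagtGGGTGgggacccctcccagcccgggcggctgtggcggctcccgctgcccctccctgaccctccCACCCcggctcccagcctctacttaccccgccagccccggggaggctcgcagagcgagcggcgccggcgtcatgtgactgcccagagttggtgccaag
Klf7, chr1:64121340-64121639, minus strand: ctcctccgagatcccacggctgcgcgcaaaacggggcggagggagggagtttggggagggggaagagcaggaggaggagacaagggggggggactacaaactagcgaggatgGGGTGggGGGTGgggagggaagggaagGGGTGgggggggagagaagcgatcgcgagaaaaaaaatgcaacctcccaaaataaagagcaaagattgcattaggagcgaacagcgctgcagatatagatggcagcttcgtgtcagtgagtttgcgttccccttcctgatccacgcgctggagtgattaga
Klf13, chr7:63938866-63939165, minus strand: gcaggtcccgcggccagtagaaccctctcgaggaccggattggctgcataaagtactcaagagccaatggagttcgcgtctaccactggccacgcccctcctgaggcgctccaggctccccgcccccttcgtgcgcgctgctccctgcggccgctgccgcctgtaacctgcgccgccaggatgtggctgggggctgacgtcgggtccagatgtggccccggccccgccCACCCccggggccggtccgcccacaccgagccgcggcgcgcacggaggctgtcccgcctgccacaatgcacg

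The Klf3 window held 5 CACCC matches on both strands together, the Klf7 window 3 and the Klf13 window 1. Across 32851 windows of the same length, 57.5% held at least 1 match and 1.02% held 5 or more. Windows were found for 7 of the 10 genes. Of these 7, the windows of Klf2, Klf3, Klf7, Klf9 and Klf13 held CACCC and those of Klf4 and Klf6 did not. GC boxes (GGGCGG on either strand, which can share bases with CACCC matches) were present in 6 of the 7, against 35.7% of all windows, and the Klf9 window had none. The GC content of the 7 windows ran from 58.3% to 76.7% with a median of 69.3%, against a median of 52.7% over all windows. Klf3-201 starts at base 118 of its window, counted from 1 at the 5′ end, and Klf13-201 at base 251. Klf7-202 and Klf7-201 start at bases 149 and 158, only 9 bases apart. The matches are letters in a sequence and show no binding.

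All 10 Klf genes reached a mean of 1 TPM, a level met by 22.7% of all Ensembl genes and 42.5% of protein-coding genes. In both libraries separately, 9 of the 10 reached it, against 18.1% of all Ensembl genes and 34.8% of protein-coding genes. The exception was Klf10 in replicate 2. Of the Klf genes left out of the set besides Klf1, namely Klf8, Klf11, Klf12, Klf14, Klf15 and Klf17, none reached 1 TPM in both libraries. Since the 10 were chosen with earlier results of these data known, the contrast with all genes carries no test. The median Klf gene stood at 17.0 TPM in replicate 1, against 14.9 TPM in replicate 2, against medians of 11.3 and 7.54 TPM for the 9858 genes with a mean of 1 TPM or more. Summed over the 10 genes the level was 255 TPM in replicate 1, against 358 TPM in replicate 2. Klf13 and Klf16 together made 57.3% of that sum in replicate 1 and 67.1% in replicate 2, whereas Klf4, Klf5 and Klf10 made 3.40% and 3.84%.

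**Figure D1:**
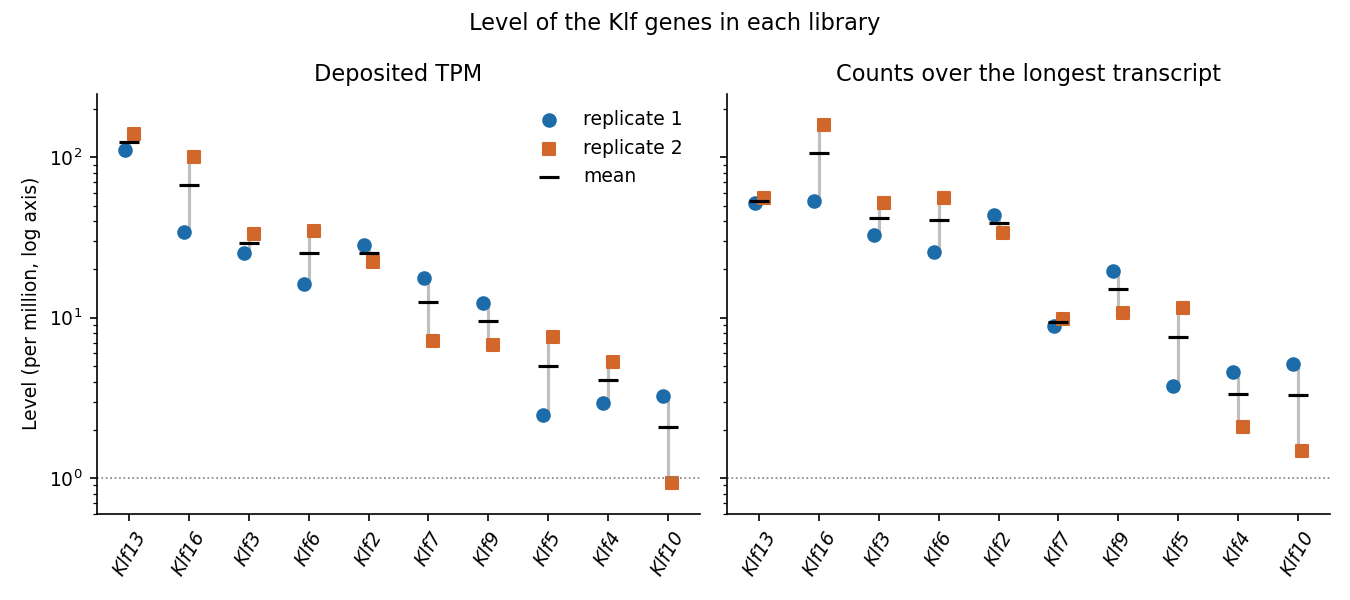
Level of each Klf gene in replicate 1 (circles) and replicate 2 (squares), with the mean of both as a bar and the range as a line, on log axes; the left panel plots the deposited TPM and the right panel counts over the length of the longest annotated transcript, scaled like TPM. Klf13 is highest in both libraries on the left, at 112 and 139 TPM, and is second to Klf16 by mean on the right, and Klf10 in replicate 2 is the only point under the dotted line at 1.

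The SIN3-binding group held both the highest and the lowest gene by mean level. Klf13 (chromosome 7, 63886351 to 63938915, minus strand, GRCm38), which activates the chemokine gene Ccl5 in T cells, had 112 TPM in replicate 1, against 139 TPM in replicate 2, from 7934 and 396 counts (125 ± 19.4 TPM, SD, n = 2). Its level was the highest of the 10 in both libraries and above that of 97.3% of all Ensembl genes in replicate 1 and 97.8% in replicate 2. Klf16 (chromosome 10, 80567124 to 80577321, minus strand), a repressor first described at dopamine receptor promoters, had 34.3 TPM in replicate 1, against 101 TPM in replicate 2, from 3419 and 474 counts (67.7 ± 47.1 TPM, SD, n = 2). Klf16 took the second rank in both libraries, although its level in replicate 2 was 2.94-fold that in replicate 1. Klf9 (chromosome 19, 23141226 to 23168134, plus strand), which is induced by glucocorticoids and thyroid hormone, had 12.4 TPM in replicate 1, against 6.74 TPM in replicate 2 (9.55 ± 3.97 TPM, SD, n = 2). Klf10 (chromosome 15, 38291463 to 38300706, minus strand), an early response gene of TGF-beta signalling, had 3.26 TPM in replicate 1, against 0.93 TPM in replicate 2 (2.10 ± 1.65 TPM, SD, n = 2). The value in replicate 2 rested on 5 counts, and its exact Poisson 95% interval ran from 0.302 to 2.17 TPM.

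Klf3 (chromosome 5, 64803388 to 64832901, plus strand), the CtBP-binding repressor, had 25.3 TPM in replicate 1, against 33.1 TPM in replicate 2, from 1794 and 133 counts (29.2 ± 5.45 TPM, SD, n = 2). It was the fourth gene by level in each library. An exon of Gm20033 on the opposite strand overlaps Klf3, and since strand use in the counting is not given in the sources used here, fragments of the pair may be mixed; Gm20033 itself held 8 and 0 counts in replicates 1 and 2.

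Among the activators, Klf2 and Klf6 were the higher pair by mean. Klf2 (chromosome 8, 72319033 to 72321656, plus strand), known for quiescence of T cells and for the response of endothelium to flow, had 28.4 TPM in replicate 1, against 22.2 TPM in replicate 2, from 1908 and 70 counts (25.3 ± 4.42 TPM, SD, n = 2). Klf6 (chromosome 13, 5861482 to 5870394, plus strand), an early response gene that activates Eng, had 16.2 TPM in replicate 1, against 34.8 TPM in replicate 2, from 2594 and 263 counts (25.5 ± 13.1 TPM, SD, n = 2). Their means lay close, but Klf2 was the higher of the pair in replicate 1 and Klf6 in replicate 2. Klf7 (chromosome 1, 64029447 to 64122282, minus strand), known mainly from neurons, had 17.8 TPM in replicate 1, against 7.16 TPM in replicate 2 (12.5 ± 7.52 TPM, SD, n = 2), and stood above Klf6 in replicate 1. Exons of Gm26649 and Gm13748 overlap Klf7 on the opposite strand, and both held 0 counts in both libraries.

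Klf5 and Klf4 were low. Klf5 (chromosome 14, 99298691 to 99315036, plus strand), known from dividing gut epithelium and smooth muscle, had 2.48 TPM in replicate 1, against 7.53 TPM in replicate 2, from 154 and 22 counts (5.0 ± 3.57 TPM, SD, n = 2). Klf4 (chromosome 4, 55527143 to 55532466, minus strand), a pluripotency factor that also drives monocyte differentiation, had 2.92 TPM in replicate 1, against 5.30 TPM in replicate 2, from 331 and 7 counts (4.11 ± 1.68 TPM, SD, n = 2). The 7 counts give Klf4 an exact Poisson 95% interval from 2.13 to 10.9 TPM in replicate 2, which includes its level in replicate 1.

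By mean TPM the order was Klf13, Klf16, Klf3, Klf6, Klf2, Klf7, Klf9, Klf5, Klf4 and Klf10. Of the 9 pairs of neighbours, 6 overlapped in their ranges over the libraries. The pairs that did not were Klf13 over Klf16 (lowest 112 TPM against highest 101 TPM), Klf16 over Klf3 (34.3 against 33.1 TPM) and Klf2 over Klf7 (22.2 against 17.8 TPM). With n = 2 and no second group, these ranges carry no test.

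The first rank of Klf13 rested on short transcripts. TPM divides by transcript length, so few counts on a short transcript give a high value. Klf13-201, of 6400 bases, took 85.4% of Klf13 counts in replicate 1 (exact 95% interval 84.6 to 86.1) and 76.8% in replicate 2 (72.3 to 80.8). Its own level was 27.6 TPM in replicate 1, against 26.2 TPM in replicate 2 (26.9 ± 0.983 TPM, SD, n = 2). In the deposited TPM, the rest came mainly from a different short transcript in each library. Klf13-204, of 487 bases, took 75.3% of Klf13 TPM in replicate 1 and 9.71% in replicate 2. Klf13-202, of 599 bases, took 0% in replicate 1 and 71.5% in replicate 2, where it held 83 counts. By posterior mean TPM, an alternative estimate from the same tables, Klf13-204 took 39.3% and Klf13-202 43.3% in replicate 2. The split between the short transcripts in replicate 2 is thus uncertain. These transcripts start 2614 and 14045 bases downstream of Klf13-201, outside the window printed above.

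Klf7 and Klf4 showed the same dependence. Klf7-201, of 1477 bases, took 84.4% of Klf7 TPM in replicate 1 and 11.4% in replicate 2, while the 7662-base Klf7-202 took 15.6% and 81.6%. By posterior mean TPM, Klf7-202 took 47.6% in replicate 2 and the 553-base Klf7-203 took 35.1%. By counts Klf7-201 and Klf7-202 were nearly even in replicate 1, at 49.0% and 51.0%. In replicate 2 Klf7-202 had 82 of 84 counts (97.6%, exact 95% interval 91.7 to 99.7). The level of Klf7-202 alone was 2.78 TPM in replicate 1, against 5.85 TPM in replicate 2, opposite in direction to the gene's TPM. For Klf4, all 331 counts of replicate 1 were placed on Klf4-201, of 3029 bases, and all 7 of replicate 2 on Klf4-203, of 859 bases, whose annotation lacks an mRNA end. The Klf4 TPM was therefore higher in replicate 2 (ratio of replicate 1 to replicate 2 of 0.551), although its CPM was 7.86 in replicate 1 and 3.08 in replicate 2. By posterior mean TPM, Klf4-203 took 70.3% of Klf4 in replicate 2. Of the 4 Klf genes with several transcripts, Klf4, Klf7 and Klf13 had the highest TPM on different transcripts in the 2 libraries, and so did 37.7% of 6576 genes compared in the same way. In Klf3 the higher transcript was Klf3-201 in both libraries, with 50.3% of TPM in replicate 1 and 100% in replicate 2. Klf3-202, which starts 8951 bases downstream, held 705 of 1794 counts in replicate 1 (39.3%, exact 95% interval 37.0 to 41.6) and 0 of 133 in replicate 2 (exact 95% interval 0 to 2.74), where 3 counts, the floor used for a count of 0, would be 2.26%. The other 6 Klf genes have 1 transcript each in the tables.

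**Figure D2:**
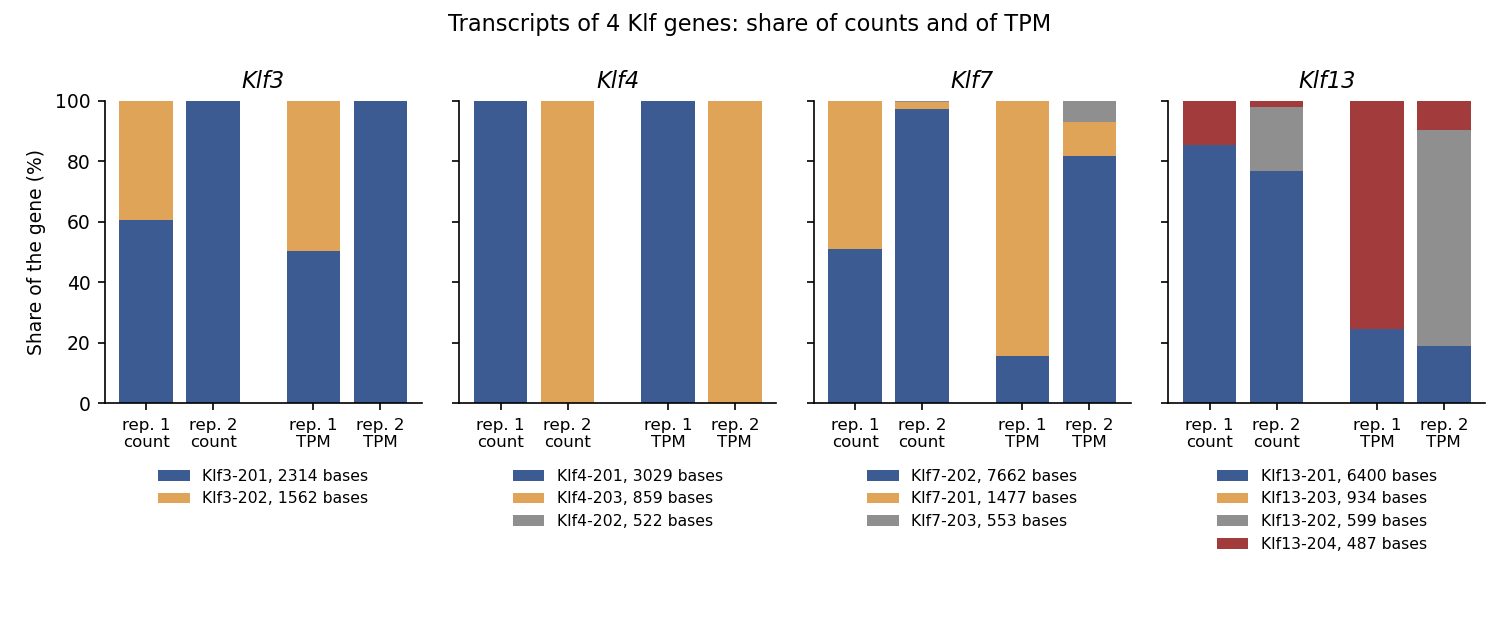
Share of each gene's counts (left pair of bars) and TPM (right pair) taken by its transcripts in replicate 1 and replicate 2, in percent, for the 4 Klf genes with several transcripts. Klf13-201 takes most counts in both libraries but 24.7% and 18.8% of TPM, and Klf4 counts lie on different transcripts in the 2 libraries.

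With counts divided by the longest transcript of each gene, a scale added after the data were seen and summed to the same total as TPM, Klf16 was first, at a level of 53.8 in replicate 1 and 159.0 in replicate 2. Klf13 followed by mean, at 52.1 and 55.5 in replicates 1 and 2. On this scale the libraries also lay close for Klf7, at 8.85 in replicate 1 and 9.83 in replicate 2. Klf4 was higher in replicate 1 on it, at 4.59 against 2.07 in replicate 2, and the lower end was again Klf5, Klf4 and Klf10. Klf3, Klf6 and Klf2 kept ranks 3, 4 and 5 by mean, and Klf9 and Klf7 exchanged ranks 6 and 7.

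The libraries were compared gene by gene as the ratio of replicate 1 to replicate 2, from counts scaled by TMM factors, which assume that most genes are level. With 1 library on each side this has no replicate check. Of the 9 Klf genes whose mean count reached 100, 1 was higher in replicate 1 by 2-fold or more and 2 were lower by as much, against 33.8% and 15.7% of the 8194 genes at that minimum. Genes pass it mainly through the deeper replicate 1. With a minimum of 50 CPM on average, which weights the libraries equally, 0 of 4 Klf genes were higher and 2 were lower, against 15.8% and 26.3% of all genes there. Klf10 was the higher one (ratio 2.97, exact 95% interval 1.26 to 9.21). Klf16 (0.288, interval 0.262 to 0.318) and Klf6 (0.394, interval 0.347 to 0.449) were the lower ones, with intervals below 0.5 under TMM factors. The other 6 lay within 2-fold. Klf2 was nearly level (1.09, interval 0.858 to 1.40), and Klf13 (0.801, interval 0.724 to 0.888) and Klf7 (0.767, interval 0.616 to 0.967) were slightly lower in replicate 1 under TMM factors, but with total counts they stood at 1.08 and 1.04, and Klf13 at 1.07 after the GC step described below. Klf3 was lower as well (0.539, interval 0.452 to 0.648). Klf9 (1.55, interval 1.13 to 2.19) and Klf4 (1.89, interval 0.907 to 4.74) were higher, and the Klf4 interval includes 1. Klf5, with a mean count of 88, stood at 0.280 (interval 0.178 to 0.459).

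The median log2 ratio of all 8194 genes was 0.30, and 6 of the 9 Klf genes lay below it, with a Klf median of -0.32. With total counts in place of TMM factors every ratio moved by 0.44 on the log2 scale, and with DESeq2 size factors by -0.13. With total counts Klf4, Klf9 and Klf10 were higher by 2-fold or more and only Klf16 was lower by as much, 3 and 1 of the 9, against 43.5% and 7.3% of all genes. Klf6 then had a ratio of 0.533 and was no longer 2-fold lower. With DESeq2 size factors Klf3 (0.491) joined Klf6 and Klf16, so 1 of the 9 was higher and 3 were lower, against 31.4% and 18.6% of all genes. Higher genes made 68.3% of all 2-fold calls under TMM factors and 85.6% under total counts. Ratios also ran with GC content, with a Spearman rho of -0.31 across 8171 genes of the same 2 libraries. Across the 9 Klf genes alone rho was 0.15. Values after removal of the trend over all genes stand beside the TMM ratios. There Klf16, whose transcript is 60.4% GC, had a ratio of 0.546 and was no longer 2-fold lower, while Klf6, at 47.7% GC, had 0.242. Klf2, at 61.6% GC, turned to 2.14 and Klf4, at 61.5% GC, to 3.71. Klf10 had 2.68. After this step 3 of the 9 were higher by 2-fold or more and 1 was lower by as much, against 31.7% and 14.8% of all genes.

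**Figure D3:**
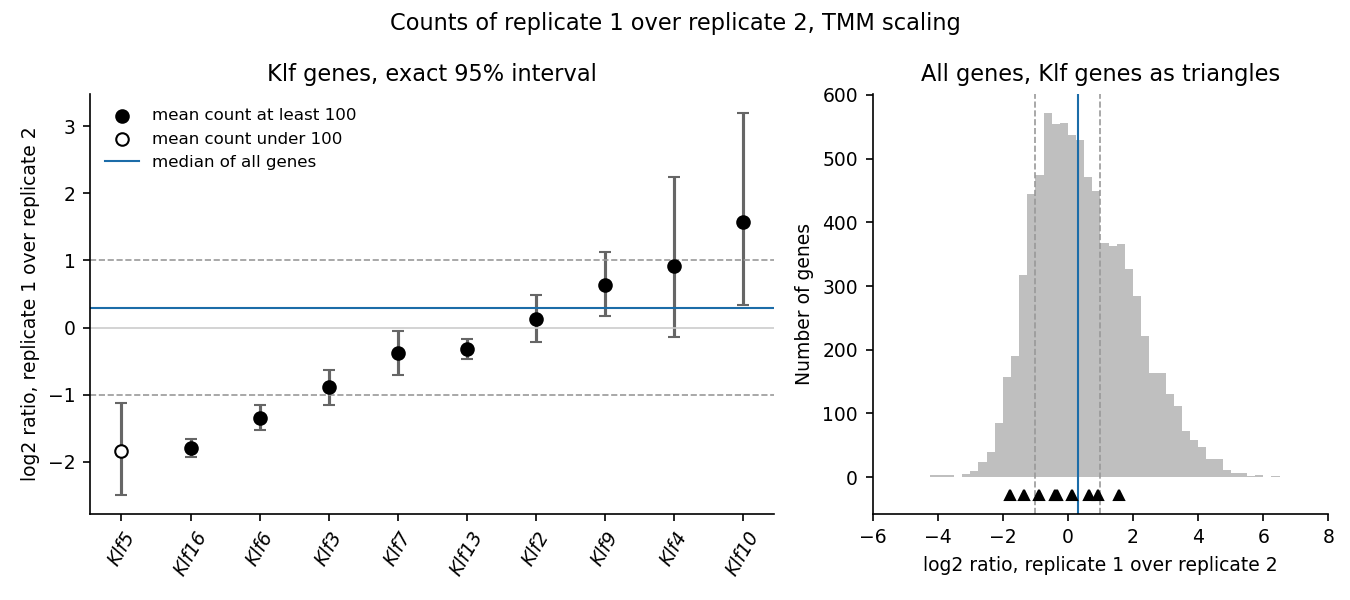
Left, log2 ratio of TMM-scaled counts, replicate 1 over replicate 2, for each Klf gene with its exact 95% interval (counting error only); the blue line is the median of all genes and dashed lines mark 2-fold. Right, the number of genes at each log2 ratio among the 8194 whose mean count reached 100, with the 9 Klf genes at that minimum as triangles; the Klf genes lie between the ratios of Klf16 (-1.79) and Klf10 (1.57).

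The other genes of the Klf and Sp families, which share the zinc finger type, were mostly lower. This difference carries no test either, because the 10 genes were chosen with earlier results known. Of 11 such genes, 7 reached a mean of 1 TPM and 4 did so in both libraries, with medians of 2.20 TPM in replicate 1, against 0.74 TPM in replicate 2. Sp2 was the highest at 32.9 TPM in replicate 1, against 37.7 TPM in replicate 2, from 3618 and 193 counts. Sp1, the prototype of the Sp family, had 3.77 TPM in replicate 1, against 15.9 TPM in replicate 2, but the mean transcript length behind these values was 2297 bases in replicate 1 and 620.2 in replicate 2, and its count ratio was 0.913. Klf1, the red cell factor, had 11.5 TPM in replicate 1, against 8.15 TPM in replicate 2, below Klf2, Klf3, Klf6, Klf13 and Klf16 in both libraries. Klf8 had 5.86 TPM in replicate 1, against 0.35 TPM in replicate 2, but from 31 and 3 counts over mean transcript lengths of 269.9 and 4752 bases, and its count ratio was 0.413 (exact 95% interval 0.129 to 2.11), opposite in direction to its TPM. Klf11 had 3.36 TPM in replicate 1, against 0.56 TPM in replicate 2, from 238 and 4 counts. Both means thus rest mostly on replicate 1. Sp3 was closer between the libraries, at 2.20 and 2.54 TPM in replicates 1 and 2, and Sp4 was low in both, at 0.23 and 0.10 TPM. Klf15 had 10 counts in replicate 1 and 12 in the far shallower replicate 2, at 0.11 and 2.90 TPM (ratio 0.0333, exact 95% interval 0.0129 to 0.0841). Klf14 had 0 counts in replicate 1 and 4 in replicate 2. Klf12 and Klf17 had 0 counts in both libraries.

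**Figure D4:**
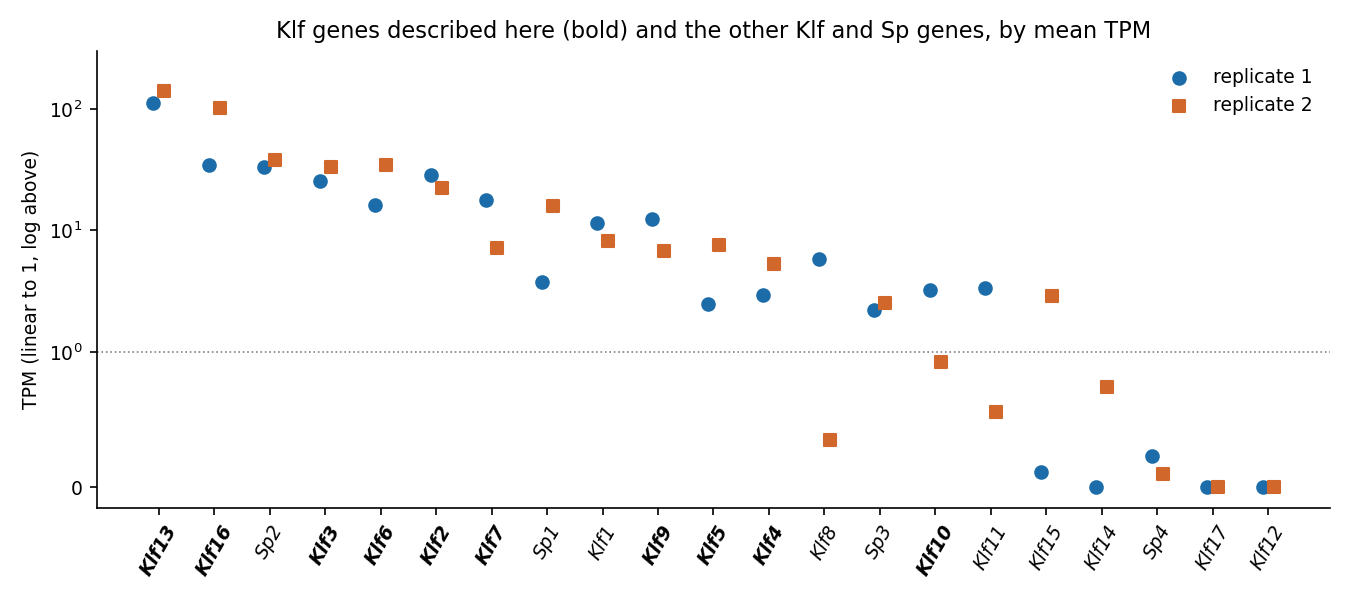
TPM in replicate 1 (circles) and replicate 2 (squares) of the 10 Klf genes (bold) and of 11 other Klf and Sp genes, ordered by mean TPM, on an axis that is linear up to 1 and logarithmic above. Klf13 and Klf16 stand first, and Klf12 and Klf17 are at 0 in both libraries.

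Genes for proteins that Klf factors recruit spanned a wide range of levels. Of 10 co-repressors and co-activators, 9 reached a mean of 1 TPM, with medians of 24.2 TPM in replicate 1, against 15.9 TPM in replicate 2. Ctbp1, the partner of Klf3, led with 239.7 TPM in replicate 1, against 206 TPM in replicate 2. Fhl3, a LIM protein that binds Klf3, had 118 and 172 TPM in replicates 1 and 2. The SIN3 co-repressor genes differed in level. Sin3b had 93.5 TPM in replicate 1, against 129 TPM in replicate 2. Sin3a, named after its values were seen, had 3.69 and 0.80 TPM, from 684 and 7 counts. Kat2b, an acetyltransferase, was lowest at 0.38 TPM in replicate 1, against 0.48 TPM in replicate 2.

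Of 13 genes for kinases, receptors and factors known to induce Klf genes, 12 reached a mean of 1 TPM, with medians of 3.18 TPM in replicate 1, against 5.66 TPM in replicate 2. The ERK5 route, which induces Klf2 and Klf4 through MEF2 factors, held both high and low genes. Mef2d had 58.8 TPM in replicate 1, against 151 TPM in replicate 2, the ERK5 kinase Map2k5 30.5 and 43.3 TPM, and ERK5 itself, Mapk7, 20.8 and 21.2 TPM. The upstream kinase Map3k3 had 1.47 TPM in replicate 1, against 1.63 TPM in replicate 2, and Mef2a had 3.35 and 0.60 TPM; both are named after their values were seen. The TGF-beta receptor Tgfbr1, upstream of Klf10, was lowest at 0.76 TPM in replicate 1, against 0.10 TPM in replicate 2, where it had 1 count. Ubiquitin ligases that act on Klf proteins were low: Smurf1 averaged 3.38 ± 0.474 TPM, Fbxw7 3.03 ± 0.643 TPM and Wwp1 0.670 ± 0.707 TPM (SD, n = 2 each).

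Of 11 reported targets of the family, 9 reached a mean of 1 TPM and 7 did so in both libraries. Lgals3, repressed by Klf3 in mouse cells, had 556 TPM in replicate 1, against 792 TPM in replicate 2. The cell cycle inhibitor gene Cdkn1a, activated by Klf4 and Klf6, had 306 and 377 TPM in replicates 1 and 2. Eng, the endoglin gene activated by Klf6, had 87.3 TPM in replicate 1, against 229.6 TPM in replicate 2. Ccl5, the target of Klf13 in T cells, had 160 counts in replicate 1 and 0 in replicate 2. Nos3, the endothelial target of Klf2, had 0 counts in both libraries.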

How the data were processed

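Polyadenylated RNA of mouse megakaryocytes was sequenced in 2 libraries of 1 group, per the labels. Per the deposited file lists, the tables use mm10 and GENCODE M4; the aligner, the quantifier and strand use are not stated in them. Expected counts, per the file headers, are the authors' estimated fragments per gene or transcript. The deposited TPM and FPKM are scaled by the authors to effective length, which follows the transcripts used in each library. The authors also deposited the percent of each gene taken by a transcript, recomputed here from TPM.

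Rows of 43346 Ensembl genes were used. Symbols, positions and GC content (42462 genes, 98.0%) came from GENCODE M21 on GRCm38, the assembly of mm10. Expected counts were rounded. TMM factors (edgeR 4.0.16) were 1.16 for replicate 1 and 0.860 for replicate 2, from 12132 genes averaging 10 counts or more, and DESeq2 1.42.0 gave alternative size factors. Intervals for ratios and shares are exact Clopper-Pearson, at 95%. They treat estimated counts as observed, so uncertainty in placing fragments on transcripts is left out of them. The GC trend was the median log2 ratio in 25 GC bins; genes at 0 in 1 library were set to 3 counts for calls past 2-fold. The ratio step was tested on simulated data. Python 3.11.15 and R 4.3.3 were used. With 1 group no test between conditions was made, and comparing protein sequences was not done. The 10 genes and all lists were chosen with earlier results of these data known. All 10 genes are named, as are all other listed Klf and Sp genes and the 3 highest and the lowest of each partner list; of the targets Ccl5, of the co-repressors Sin3a, and of the inducers Map3k3 and Mef2a, were added after their values were seen. Macrophage and granulocyte lists and those of other cell types are markers fixed by name. Erythroid markers gave sums of 7084 TPM in replicate 1, against 13900 TPM in replicate 2, mostly from globin genes. The globin genes differed in direction. Hba-a1 had 4480 TPM in replicate 1, against 12715.5 TPM in replicate 2, whereas Hbb-bt had 1719 and 513 TPM and Hbb-bs 727 and 481 TPM. Endothelial markers gave 221 and 312, hepatocyte markers 149 and 79.5, lymphoid markers 3.47 and 2.54 and stromal markers 2.20 and 1.52. Eng, Egfl7, Tie1 and Esam made most of the endothelial sum. Cdh5, Kdr, Tek, Emcn, Flt1 and Robo4 were under 0.5 TPM in both libraries. Dlk1 (92.5 and 69.7 TPM) and Trf (54.7 and 7.90 TPM) made most of the hepatocyte sum, with Alb and Ttr at 0 counts in both.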

Additional observations from a re-analysis of the deposited data

How the results depend on the processing

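The number of Klf genes at a mean of 1 TPM was 9 without replicate 1 and 10 without replicate 2, where 8775 and 10053 of the 43346 Ensembl genes reached it. It was 10 with posterior mean TPM, with counts over the longest transcript and at a level of 0.5 TPM (26.1% of all Ensembl genes), and 8 at 5 TPM (14.9%). The number of Klf genes at the level in both libraries ran from 7 at 5 TPM (11.8% of all Ensembl genes) to 10 at 0.5 TPM (20.2%) or over the longest transcript. On the longest-transcript scale Klf10 in replicate 2 stood at 1.47, against 0.93 TPM. The share of all genes was not computed for that scale or for posterior mean TPM. Against 1 gene at least 2-fold higher in replicate 1 and 2 lower, total counts gave 3 higher and 1 lower (43.5% and 7.3% of all genes), removal of the GC trend gave 3 higher and 1 lower (31.7% and 14.8%), and a minimum of 50 CPM, which 4 Klf genes passed, gave 0 higher and 2 lower, against 15.8% and 26.3% of all genes at that minimum. DESeq2 size factors gave 1 higher and 3 lower (31.4% and 18.6%) and a minimum of 10 counts 1 and 3 (27.6% and 21.6%). No minimum gave 1 and 3 (7.72% and 15.1% of all genes), and posterior mean counts 1 and 2 (2763 and 1298 of 8194 genes). At these 2 looser minima, a gene with few counts in replicate 1 and 0 in replicate 2 was set to 3 counts there. Since replicate 1 was far deeper, such a gene could be called lower in the only library where it was seen. The shares of lower genes thus partly reflect this floor. With no minimum, the 43346 genes also include 27189 at 0 in both libraries. The cause of the differing Klf numbers was not tested, other than that the 50 CPM minimum leaves fewer genes. Klf10, Klf16 and Klf6, past 2-fold under TMM factors, kept their direction under the other scalings, whereas Klf2, past 2-fold after removal of the GC trend (log2 ratio 1.10), stood at -0.01 with DESeq2 size factors. Mean levels moved by more than the SD for 5 of 10 genes over the longest transcript, and for 0 with FPKM or posterior mean TPM. The 5 were Klf2, Klf3, Klf6, Klf9 and Klf13. Klf2, Klf6 and Klf9 have 1 transcript each, of the same length in both libraries. Their own annotated length was thus the same on both scales. The longest-transcript scale also divides every other gene by its longest transcript and then rescales all genes to a common total. What moved the levels was not tested. Depth limits Klf4, Klf5 and Klf10 most, with 7, 22 and 5 counts in replicate 2. Ratios between the libraries could not be given with a library left out. No paired analysis was possible because the labels give 1 group.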
